A study of Homo sapiens with 6 samples.

Results

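Lactate dehydrogenase A, 6 further glycolytic enzymes and 1 subunit of pyruvate dehydrogenase were followed in breast cancer cells that had either stopped dividing or kept dividing in the mouse brain. The 8 genes, *ALDOA*, *TPI1*, *GAPDH*, *PGK1*, *ENO1*, *ENO2*, *LDHA* and *PDHA1*, were taken by their symbol and made up 9 of the 1161 rows of the deposited table, since *ALDOA* stands there under 2 Ensembl identifiers. Each row gives estimated counts and normalized read counts of 1 gene in 6 mRNA sequencing libraries. Only genes that the authors had called different between the same libraries are in the table, so a difference in any of these rows was in part fixed by that selection, and none of the tests below is independent evidence of it.

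All 6 libraries were made from MDA-MB-231, a human triple negative breast cancer cell line that carried GFP and was labelled with CellVue Claret (CV), a membrane dye that dividing cells dilute. Female C.B-17 SCID mice aged 6 to 8 weeks received the labelled cells through the internal carotid artery, and on day 28 they were sorted from the dissociated brain. Cells without dye were the proliferating (GFP+CV-) population and cells that had kept it the dormant (GFP+CV+) population, labelled cell cycle-inactive, with 3 libraries each. The paper reports that dormant cells were a small minority of the GFP+ cells isolated. Whether the number of cells behind a library differed between the populations, and what part it has in the values, was not tested. Replicates 1 and 2 each came from pools of 10 mice and replicate 3 from a pool of 9 mice, and both populations of one number came, by their labels, from the same group of mice. SCID mice lack functional T and B cells, and each library pools the cells of several mice, so differences between single mice were not measured. Summed over the table, estimated counts were between 7978657 and 17928784 per library, which is part of a library and not its depth.

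Glycolysis splits glucose into pyruvate in the cytosol and yields ATP and NADH. Aldolase and triose phosphate isomerase make the triose phosphates, GAPDH, phosphoglycerate kinase and enolase carry them on towards pyruvate, and lactate dehydrogenase reduces pyruvate to lactate, which restores NAD+. Pyruvate dehydrogenase instead feeds pyruvate into mitochondrial respiration as acetyl-CoA. Many tumours run glycolysis to lactate with oxygen present, and the transcription factors HIF1α and MYC are known to raise transcription of many of the enzymes.

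As HIF1α and MYC bind short motifs near start sites, promoters of 6 of the 8 genes are shown. The promoters run from 250 bases before to 50 bases after the annotated start, as given by RefSeq on GRCh38.p14. They hold the gene that differed most (*LDHA*), the most abundant one (*GAPDH*), *PGK1*, both enolases and the gene that differed least (*PDHA1*). The windows are *LDHA* at chr11:18394313-18394612, *GAPDH* at chr12:6535014-6535313, *PGK1* at chrX:78103998-78104297, *ENO1* at chr1:8878637-8878936, *ENO2* at chr12:6914330-6914629 and *PDHA1* at chrX:19343677-19343976. That of *ENO1* is on the minus strand and the others are on the plus strand. Each is written 5′ to 3′ along the gene, and capitals mark every match to ACGTG or GCGTG, the core letters bound by hypoxia-inducible factors, on either strand.
LDHA: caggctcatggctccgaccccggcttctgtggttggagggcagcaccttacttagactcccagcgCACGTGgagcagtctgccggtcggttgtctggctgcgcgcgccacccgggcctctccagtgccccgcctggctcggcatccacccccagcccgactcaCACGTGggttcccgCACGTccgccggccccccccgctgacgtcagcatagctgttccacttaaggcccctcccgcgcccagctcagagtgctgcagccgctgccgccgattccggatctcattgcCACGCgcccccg
GAPDH: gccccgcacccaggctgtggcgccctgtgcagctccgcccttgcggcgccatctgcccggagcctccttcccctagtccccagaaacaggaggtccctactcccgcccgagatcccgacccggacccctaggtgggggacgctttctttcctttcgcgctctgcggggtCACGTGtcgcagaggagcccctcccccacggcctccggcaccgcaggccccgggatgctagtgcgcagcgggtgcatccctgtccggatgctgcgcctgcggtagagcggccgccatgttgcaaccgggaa
PGK1: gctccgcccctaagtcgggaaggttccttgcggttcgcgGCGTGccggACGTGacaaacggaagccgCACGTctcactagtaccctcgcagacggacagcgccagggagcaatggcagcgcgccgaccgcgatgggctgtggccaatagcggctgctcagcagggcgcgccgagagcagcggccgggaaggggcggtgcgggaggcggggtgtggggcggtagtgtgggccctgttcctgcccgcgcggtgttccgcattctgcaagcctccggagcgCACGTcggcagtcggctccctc
ENO1: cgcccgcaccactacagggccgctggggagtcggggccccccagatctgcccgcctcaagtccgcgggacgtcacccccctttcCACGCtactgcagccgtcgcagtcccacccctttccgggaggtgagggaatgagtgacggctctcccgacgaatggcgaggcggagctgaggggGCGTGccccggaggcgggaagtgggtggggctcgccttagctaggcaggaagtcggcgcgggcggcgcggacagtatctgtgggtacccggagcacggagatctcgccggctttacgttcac
ENO2: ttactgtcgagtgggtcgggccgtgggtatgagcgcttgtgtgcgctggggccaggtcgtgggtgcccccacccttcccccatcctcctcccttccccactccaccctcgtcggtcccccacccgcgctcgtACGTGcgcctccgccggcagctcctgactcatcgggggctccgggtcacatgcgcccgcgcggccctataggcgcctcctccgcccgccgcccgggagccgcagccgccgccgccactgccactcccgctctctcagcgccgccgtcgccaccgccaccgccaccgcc
PDHA1: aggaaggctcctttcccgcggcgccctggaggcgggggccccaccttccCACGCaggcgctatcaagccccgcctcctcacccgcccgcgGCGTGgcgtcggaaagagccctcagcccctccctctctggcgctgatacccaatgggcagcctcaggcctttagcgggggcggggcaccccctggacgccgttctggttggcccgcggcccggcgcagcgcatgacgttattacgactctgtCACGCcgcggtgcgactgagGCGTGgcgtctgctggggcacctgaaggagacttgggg

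RefSeq gave 12 such windows of 300 bases for the 8 genes, all of which matched by symbol, with several start sites for *LDHA*, *TPI1* and *ALDOA*. ACGTG on either strand was in 8 of the 12 windows, which belong to 6 genes, and in 21.4% of the 35116 windows of all genes. GCGTG was in 6 of the 12 windows and in 36.5% of all windows. CACGTG, the E-box bound by MYC with its partner MAX, was in 3 of the 12 windows, 1 each of *LDHA*, *GAPDH* and *ALDOA*, and in 7.3% of all windows. CACGTG reads the same on both strands and holds ACGTG on each, so every E-box was also counted as 2 matches of ACGTG. The *LDHA* window shown has 5 matches of ACGTG, 4 of them inside its 2 E-boxes, and 1 of GCGTG. The other *LDHA* window has no match of ACGTG and 1 of GCGTG, and 1 of the *TPI1* windows has no match of either. The *PDHA1* window has 4 matches of GCGTG and none of ACGTG. These matches describe the letters of the windows and are not measured binding sites. The paper describes glycolysis genes that fell in dormant cells as regulated by HIF1α and MYC. The 8 genes were chosen with such results known, so the shares beside all windows are no independent evidence of either factor.

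Dormant (GFP+CV+) cells held less of all 8 transcripts than proliferating (GFP+CV-) cells did, and the drop ran from 28.4% for *PDHA1* to 51.8% for *LDHA* in the mean normalized read count. All 9 rows passed 0.05 as lower in dormant cells by the quasi-likelihood test of edgeR, with p-values adjusted by Benjamini-Hochberg over the 1161 listed genes from 0.00322 to 0.0105. Of all listed genes, 50.0% passed as lower, 49.6% as higher and 99.7% in either direction, so passing is not particular to these 8 genes. With the replicate number as a block, 9 of the 9 rows and 47.6% of the listed genes passed as lower. The median log2 fold change of the 9 rows was -0.83, beside -0.33 over all listed genes. In each row the 3 dormant libraries lay below the 3 proliferating libraries, as they did for 50.2% of the listed genes.

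Adjusted over the 20046 protein-coding genes of GENCODE release 44, where each gene outside the table was given a larger p-value than any in it, none of the 9 rows passed by edgeR, with adjusted p-values from 0.0556 to 0.181. All 9 had an unadjusted p-value under 0.05. Over that number, limma called 0 and DESeq2 9 of the 9 rows, beside 0.258% of the listed genes by edgeR, 14.9% by limma and 100% by DESeq2. In bulk libraries of sorted cells, fewer transcripts per cell and fewer cells that express a gene cannot be told apart.

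**Figure D1:**
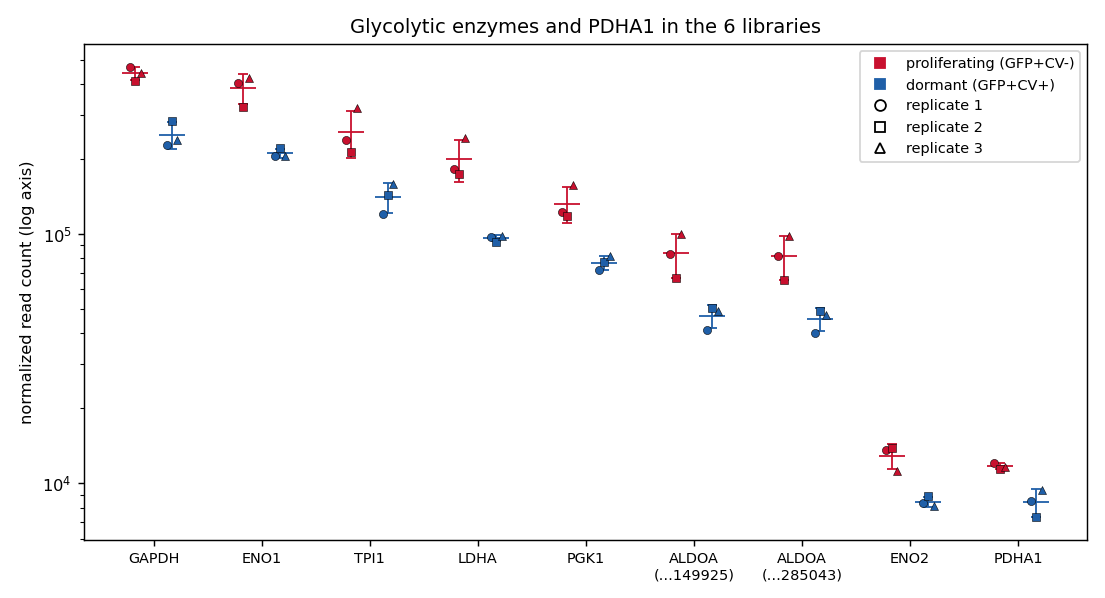
Normalized read count (log axis) of the 9 rows in each library, with red for proliferating and blue for dormant cells, symbols for the replicates, and mean and SD (n = 3) as a dash and bars. In every row all 3 blue symbols lie below all 3 red ones, and the triangle of proliferating replicate 3 is the highest for *ENO1*, *TPI1*, *LDHA*, *PGK1* and *ALDOA* but the lowest red symbol for *ENO2*.

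*ALDOA* encodes aldolase A, which cleaves fructose bisphosphate into triose phosphates. It lies on the plus strand of chromosome 16 from 30064164 to 30070457 in GRCh38. Under the identifier ENSG00000149925 its normalized read counts were 83469, 66823 and 100193 in proliferating replicates 1, 2 and 3 and 41270, 50525 and 48886 in dormant replicates 1, 2 and 3. The proliferating libraries spread more than the dormant ones, and the lowest of them was still above the highest dormant library. The log2 fold change came to -0.83 with a standard error of 0.16 (edgeR adjusted p 0.00421).

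*TPI1* encodes triose phosphate isomerase, which interconverts the products of aldolase. Its normalized read counts were 238465, 213422 and 318753 in the proliferating and 120595, 142626 and 158734 in the dormant libraries. Replicate 3 was the highest in both populations. The log2 fold change was -0.87 (standard error 0.17), with an edgeR adjusted p-value of 0.00441.

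*GAPDH* oxidizes and phosphorylates the triose and is widely used as a reference gene in expression assays. It was the most abundant of the 8 genes, with 468305, 411600 and 441556 normalized read counts in proliferating cells, against 227153, 284852 and 238028 in dormant cells. Its mean fell from 440487 ± 28368 (SD, n = 3) to 250011 ± 30659 (SD, n = 3), a gap several times the spread of either population (log2 fold change -0.82, standard error 0.11). *PGK1*, phosphoglycerate kinase, catalyses the first step of glycolysis that yields ATP. It had 122448, 117660 and 156891 normalized read counts in proliferating cells, against 71407, 76948 and 81441 in dormant cells, which gave a log2 fold change of -0.79 (SE 0.13). The dormant libraries of *PGK1* stayed close together, while proliferating replicate 3 stood above the other proliferating libraries.

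Enolase makes phosphoenolpyruvate, and its isoforms differ by tissue. *ENO1* is the form found in most cells and *ENO2* is known as neuron-specific enolase, although tumours often express it too. *ENO1* spans 8861000 to 8879190 on chromosome 1, minus strand, and *ENO2* spans 6913745 to 6923698 on chromosome 12, plus strand. The normalized read counts of *ENO1* were 403547, 323279 and 422761 in proliferating and 206193, 220197 and 205476 in dormant cells. Those of *ENO2* were 13670, 13885 and 11236 in proliferating and 8348, 8895 and 8113 in dormant cells. The log2 fold change of *ENO1* was -0.86, with a standard error of 0.12, and that of *ENO2* -0.61, with 0.13. With the libraries scaled to equal sums of listed counts, *ENO2* no longer passed (log2 fold change -0.32, edgeR adjusted p 0.0762).

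*LDHA* encodes the subunit of lactate dehydrogenase that prevails in muscle and in many tumours, and it lies on the plus strand of chromosome 11 from 18394560 to 18408425. Its normalized read counts were 181561, 173996 and 243247 in proliferating and 97536, 92918 and 98053 in dormant cells. The dormant libraries lay close together and far below the lowest proliferating library. *LDHA* had the largest decrease of the 8 genes, with a log2 fold change of -1.05 (SE 0.14, edgeR adjusted p 0.00322), and it was the only one that fell by more than 2-fold with the deposited size factors, as 23.7% of the listed genes did. Its log2 fold change was -0.89 without proliferating replicate 3 and -0.76 with equal sums of listed counts.

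*PDHA1* encodes the catalytic alpha subunit of pyruvate dehydrogenase, whose phosphorylation switches the enzyme off. On chromosome X it spans 19343893 to 19361718, plus strand. Its normalized read counts were 12125, 11471 and 11624 in proliferating and 8486, 7320 and 9410 in dormant cells. Here the proliferating libraries lay closest together and the dormant ones spread more, the opposite of most of the glycolytic enzymes. The log2 fold change was -0.48 (standard error 0.14), with an edgeR adjusted p-value of 0.0105. With equal sums of listed counts it was -0.20 and the edgeR adjusted p-value 0.200, which did not pass.

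Some of these counts share reads with other features, since multi-mapping reads were included and the library kit does not mark strand. The second *ALDOA* identifier, ENSG00000285043, covers 30053123 to 30070414 on the same strand of chromosome 16 and so covers nearly all of the first. Its estimated counts were between 96.9% and 97.7% of those of the first in every library, so both rows measure nearly the same reads and *ALDOA* counts as 1 gene. The listed antisense RNA AC006064.4 lies opposite the last part of *GAPDH*, from 6537794 to 6538370 on chromosome 12, where *GAPDH* spans 6534512 to 6538374. Its estimated counts were 27.4% to 28.7% of those of *GAPDH* in every library, a nearly fixed share, and its log2 fold change of -0.84 was close to the -0.82 of *GAPDH*. Reads of both strands cannot be told apart here. GENCODE names 84 pseudogenes of the 8 genes, 65 of them of *GAPDH*, and 1 was in the table. This was *LDHAP4*, whose estimated counts were 1.07% to 1.55% of those of *LDHA*, with a log2 fold change of -0.80.

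*GAPDH*, *TPI1* and *ENO2* lie in one region of chromosome 12, all on the plus strand, within 389187 bases. They are not adjacent, since other genes lie between *TPI1* and *ENO2*. *TPI1* and *ENO2* are 42796 bases apart. Among proliferating libraries, replicate 3 held the highest value of *TPI1* and the lowest of *ENO2*.

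To compare levels between genes, normalized read counts were divided by the length of the canonical transcript in kilobases. The order in proliferating cells was *GAPDH* (342791 per kilobase), *ENO1* (215158), *TPI1* (190141), *LDHA* (89068), *ALDOA* (50911), *PGK1* (27501), *ENO2* (5637) and *PDHA1* (3506). The order in dormant cells was the same, from 194561 for *GAPDH* to 2510 normalized read counts per kilobase for *PDHA1*. *ENO1* and *TPI1* overlapped between their libraries in both populations, with 215158 ± 29630 and 190141 ± 40730 (SD, n = 3) in proliferating cells, so their order is within the spread. The other neighbours in the order did not overlap. The value of *ALDOA* is that of ENSG00000149925 alone. Whether reads shared by both *ALDOA* identifiers were divided between them was not tested, so the place of *ALDOA* in the order is uncertain. As a share of all listed counts, the 8 genes took 11.7%, 10.8% and 13.1% in proliferating and 7.76%, 8.61% and 7.70% in dormant libraries, and no dormant library reached the lowest proliferating one.

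Ratios within a library do not depend on its scaling, and 4 were compared to see whether the balance between the enzymes differed. The ratio of *LDHA* to *PDHA1*, the 2 genes whose enzymes compete for pyruvate, was 15.0, 15.2 and 20.9 in proliferating and 11.5, 12.7 and 10.4 in dormant libraries. The populations did not overlap, and the log2 difference of dormant minus proliferating was -0.55 (standard error 0.18). In a two-sided exact permutation test p was 0.1, the smallest that 3 against 3 libraries allow, and 0.4 adjusted over the 4 ratios. The ratio was lower in dormant cells in all 3 same-numbered pairs, with log2 differences of -0.38, -0.26 and -1.01. At this size none of the 4 ratios could pass 0.05.

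The ratio of *ENO1* to *ENO2* was 29.5, 23.3 and 37.6 in proliferating and 24.7, 24.8 and 25.3 in dormant libraries. The 3 dormant values lay within 1 unit of each other, in the lower part of the wide proliferating range, and the populations overlapped. The log2 difference was -0.25 (standard error 0.20), with an exact permutation p of 0.4 (two-sided, 0.667 adjusted over the 4 ratios), and without proliferating replicate 3 it was -0.073. Divided by transcript length, *ENO1* was 38.8 ± 9.26 times *ENO2* in proliferating and 32.1 ± 0.448 times in dormant cells (SD, n = 3). The ratio of *ENO1* to *GAPDH* was 0.868 ± 0.0862 and 0.848 ± 0.0686 (SD, n = 3), with a log2 difference of -0.032 (standard error 0.11) that was within the spread (exact permutation p 0.8). The ratio of *LDHA* to *GAPDH* was 0.454 ± 0.0859 and 0.389 ± 0.0552 (SD, n = 3), and its populations also overlapped (log2 difference -0.22, standard error 0.20, exact permutation p 0.5).

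**Figure D2:**
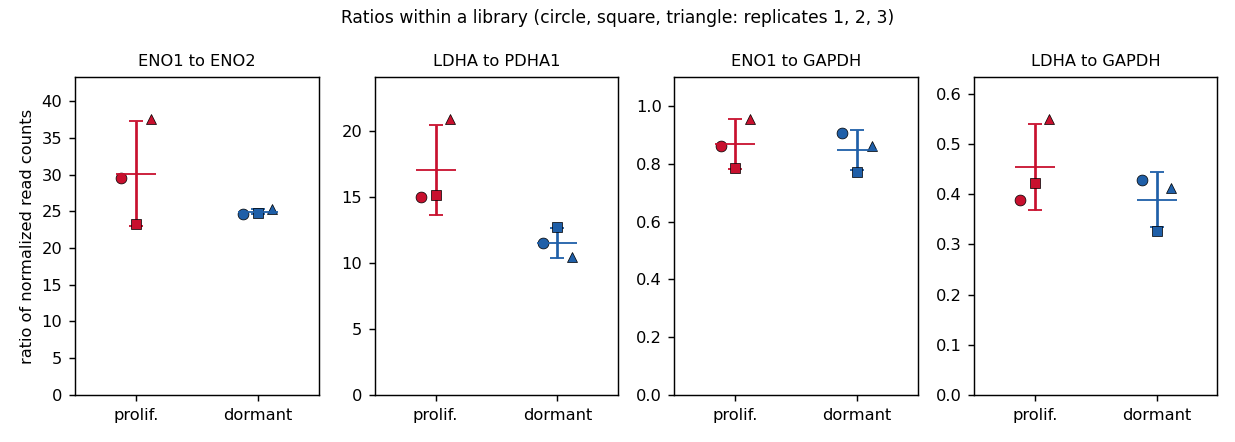
Ratio of normalized read counts of 2 genes within each library (linear axes from 0), with mean and SD (n = 3) as a dash and bars, red for proliferating and blue for dormant cells. Only for *LDHA* to *PDHA1* do the dormant libraries (10.4 to 12.7) all lie below the proliferating ones (15.0 to 20.9), and for *ENO1* to *ENO2* the dormant libraries sit together between 24.7 and 25.3.

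Within a population, several of the genes were high or low in the same library. In proliferating replicate 3, the pool of 9 mice, *ALDOA*, *ENO1*, *LDHA*, *PGK1* and *TPI1* were at their highest, while 31.6% of all listed genes were highest there. Its deviation from the mean of the proliferating libraries, as log2 of 1 plus the normalized read count, was 0.33 for *TPI1*, 0.30 for *LDHA*, 0.28 for *ALDOA* and 0.26 for *PGK1*. It was 0.0055 for *GAPDH*, -0.014 for *PDHA1* and -0.20 for *ENO2*. The last of these was the only one of the 8 genes at its lowest in that library. Proliferating replicate 2 held the lowest value of the other 7 genes, and 35.8% of all listed genes were lowest there. Of the 44 listed genes with a mean of at least 50000 normalized read counts, 40.9% were highest in proliferating replicate 3 and 47.7% lowest in proliferating replicate 2. Among dormant libraries, replicate 1 was highest for none of the 8 genes and lowest for *ALDOA*, *GAPDH*, *PGK1* and *TPI1*, while 43.2% of all listed genes and 61.4% of those 44 abundant genes were lowest there.

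With the mean of each population removed, the Pearson correlation over the 6 libraries was 0.97 between *TPI1* and *PGK1*, 0.92 between *TPI1* and *ALDOA* and 0.91 between *LDHA* and *PGK1*. Between *LDHA* and *ENO2* it was -0.97. The 15 pairs among the 6 genes other than *ENO2* and *PDHA1* had a median of 0.67, from -0.06 between *GAPDH* and *LDHA* upwards. The 13 pairs with *ENO2* or *PDHA1* had a median of -0.31. In the proliferating libraries *TPI1*, *ALDOA*, *PGK1* and *LDHA* were all lowest in replicate 2 and highest in replicate 3, and *ENO2* the reverse. The dormant libraries did not share this pattern, since *ENO2* and *ALDOA* were both highest in dormant replicate 2, where *LDHA* was lowest. These values describe 3 libraries of each population that share their scaling, and the deviations of *TPI1*, *ALDOA*, *PGK1* and *LDHA* were largest in proliferating replicates 2 and 3.

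**Figure D3:**
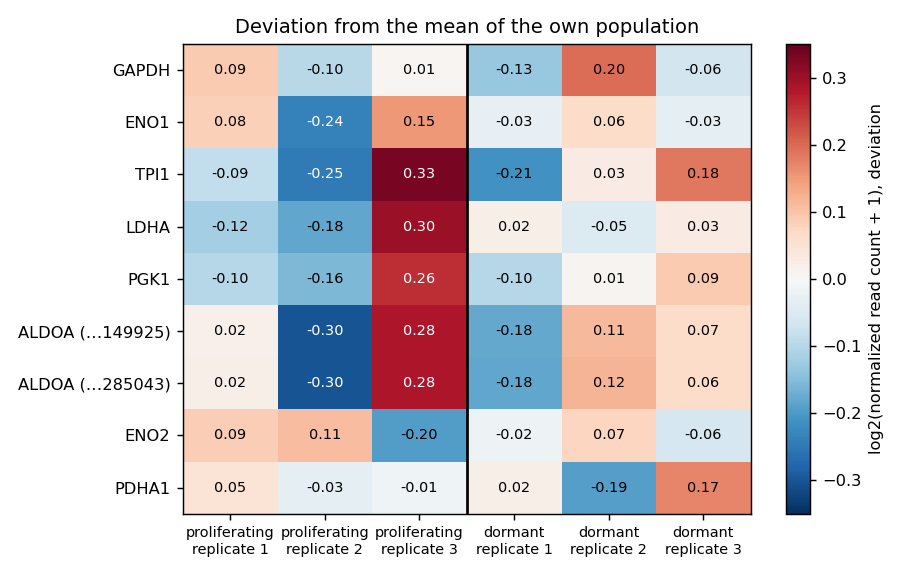
Deviation of each row in each library from the mean of its own population, as log2 of 1 plus the normalized read count (red above, blue below the mean). *TPI1*, *LDHA*, *PGK1* and *ALDOA* are between 0.26 and 0.33 above their mean in proliferating replicate 3, where *ENO2* is 0.20 below its own, and the dormant libraries deviate by less for *LDHA* and *ENO1*.

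The 5 listed genes closest to the mean standardized profile of the 8 genes after the population means were removed were *MYL6B* and *MYL6* (Pearson r of 0.987 each over 6 libraries), *CD74* (0.979), *COPS6* (0.961) and *PGAM1* (0.960). *MYL6* and *MYL6B* encode myosin light chains, *CD74* the invariant chain of MHC class II, and *PGAM1* phosphoglycerate mutase, the enzyme between phosphoglycerate kinase and enolase. All 5 were lower in dormant cells, with log2 fold changes from -0.55 to -0.96. Without removal of the means, the closest were *CAND2*, AL359715.3, *LINC01703*, *MPP2* and *SAXO2*, with r from 0.993 to 0.995 and mean normalized read counts of only 19.2 to 110.1. Their log2 fold changes ran from -10.87 to -8.35, far larger decreases than those of the 8 genes.

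Of 27 other glycolytic enzymes and regulators in the list used, only *PGAM1* was in the table. It had 39710, 33597 and 45562 normalized read counts in the proliferating and 21627, 25481 and 27930 in the dormant libraries, and its log2 fold change was -0.66 (SE 0.15, edgeR adjusted p 0.00578). Like *TPI1*, it was highest in replicate 3 of both populations. None of 9 glucose and lactate transporters was listed, and genes outside the table were not analysed here.

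Of 15 genes of pyruvate entry and the pyruvate dehydrogenase complex, 2 were listed, and both were higher in dormant cells with the deposited size factors, although *PDP1* turned to a log2 fold change of -0.084 with the median ratio. *PDK4* encodes a kinase that inactivates pyruvate dehydrogenase by phosphorylation of its alpha subunit. It had 1309, 2055 and 2029 normalized read counts in proliferating cells, against 7678, 4289 and 6212 in dormant cells, which gave a log2 fold change of 1.75 (SE 0.29, edgeR adjusted p 0.00322). *PDP1* encodes a phosphatase with the opposite action. It had 7373, 6953 and 6818 normalized read counts in proliferating cells, against 9077, 9362 and 11689 in dormant cells, with a log2 fold change of 0.51 (SE 0.15, edgeR adjusted p 0.0113). The populations overlapped for neither gene. Over all listed genes, 50.2% had every dormant library below every proliferating one, and the share with every dormant library above is not given here.

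In the citric acid cycle, which takes up the acetyl-CoA, 4 of 17 genes were listed and all 4 were lower in dormant cells. *IDH3G*, a subunit of isocitrate dehydrogenase, had a log2 fold change of -0.56, *SUCLG1* and *SUCLG2*, subunits of succinyl-CoA ligase, of -0.62 and -1.06, and *SDHB*, a subunit of succinate dehydrogenase, of -0.81. Of 8 pentose phosphate pathway genes, *RPIA*, which makes ribose phosphate, was listed, with a log2 fold change of 1.79 (SE 0.43). Its normalized read counts were 1367, 629 and 517 in proliferating and 3614, 2123 and 2928 in dormant cells. All 5 of these genes passed 0.05 by edgeR over the listed genes, as did 99.7% of the listed genes in either direction. With equal sums, *IDH3G* and *SUCLG1* did not pass (edgeR adjusted p 0.06 and 0.135).

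Of 10 hypoxia-inducible factors and their regulators, *HIF3A* and *VHL* were listed, both higher in dormant cells. *VHL*, which marks HIF1α for degradation, had 1342, 651 and 623 normalized read counts in proliferating cells, against 3347, 3098 and 1611 in dormant cells, which gave a log2 fold change of 1.62 (SE 0.43, edgeR adjusted p 0.0087). *HIF3A*, a relative that can oppose HIF1α, was at 0, 0 and 4.88 normalized read counts in proliferating cells, against 119, 527 and 1089 in dormant cells. Of 14 hypoxia-responsive genes outside glycolysis, 3 were listed and they did not share a direction. *NDRG1* rose (log2 fold change 0.82, standard error 0.19, but 0.21 and not past 0.05 with the median ratio), while *TIMP1*, a metalloprotease inhibitor, fell (-0.93, standard error 0.17). *ITGB2*, an integrin of leukocytes, had 1026, 1281 and 184 normalized read counts in proliferating cells, against 2.85, 24.0 and 5.53 in dormant cells. Neither *MYC* nor any of the 8 related genes in the list used, among them *MAX*, was in the table, nor were any of 13 reference genes other than *GAPDH*.

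**Figure D4:**
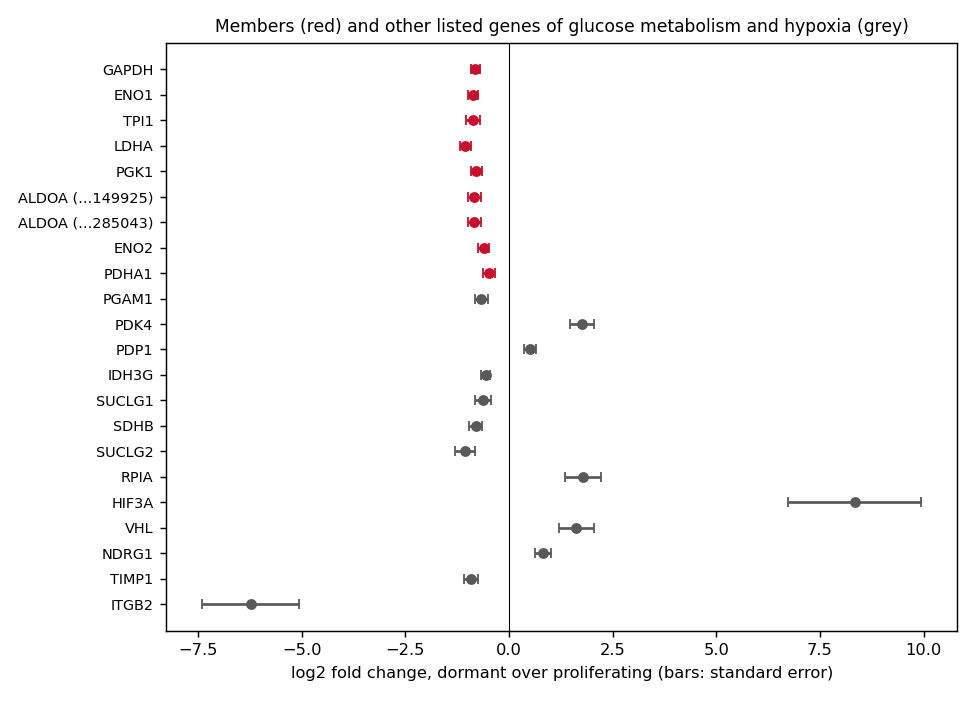
Log2 fold change of dormant over proliferating cells with its standard error (edgeR) for the 9 rows of the 8 genes (red) and 13 further listed genes of glucose metabolism and hypoxia (grey). The red points lie between -1.05 and -0.48, *PGAM1* and the citric acid cycle genes lie in and near the same range, and *PDK4*, *PDP1*, *RPIA*, *HIF3A*, *VHL* and *NDRG1* lie above 0, of which *PDP1* was at -0.084 with the median ratio.

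The glycolytic enzymes are among the most abundant listed genes, and abundant listed genes were mostly lower in dormant cells. *GAPDH*, *ENO1* and *TPI1* ranked 3, 5 and 6 by mean normalized read count among the 1161 rows, *LDHA* 12, *PGK1* 19 and *ALDOA* 34, while *ENO2* and *PDHA1* ranked 216 and 225. Of the 44 listed genes with a mean of at least 50000 normalized read counts, 43 passed by edgeR as lower in dormant cells (97.7%), 7 of them rows of the 8 genes, and the exception was the noncoding RNA *MALAT1* (log2 fold change 1.11). The median log2 fold change of these 44 was -0.62. Within them *LDHA* had the largest decrease, followed by *CST3* with -1.04, *TPI1* ranked 5, *ENO1* 6, *GAPDH* 10 and *PGK1* 12. From 10000 to under 50000, where *ENO2* and *PDHA1* lie, 147 of 182 listed genes had lower means in dormant cells. Their median log2 fold change, -0.53, lay between those of *PDHA1* and *ENO2*. Scaling by the median ratio of the listed genes moved the mean log2 size factors of the populations against each other so that log2 fold changes shifted by about -0.59, and equal sums of listed counts by about 0.29. The fitted shift differed somewhat between genes, and all 9 rows remained below 0 under both. With equal sums, 25 of the 44 abundant genes passed as lower.

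**Figure D5:**
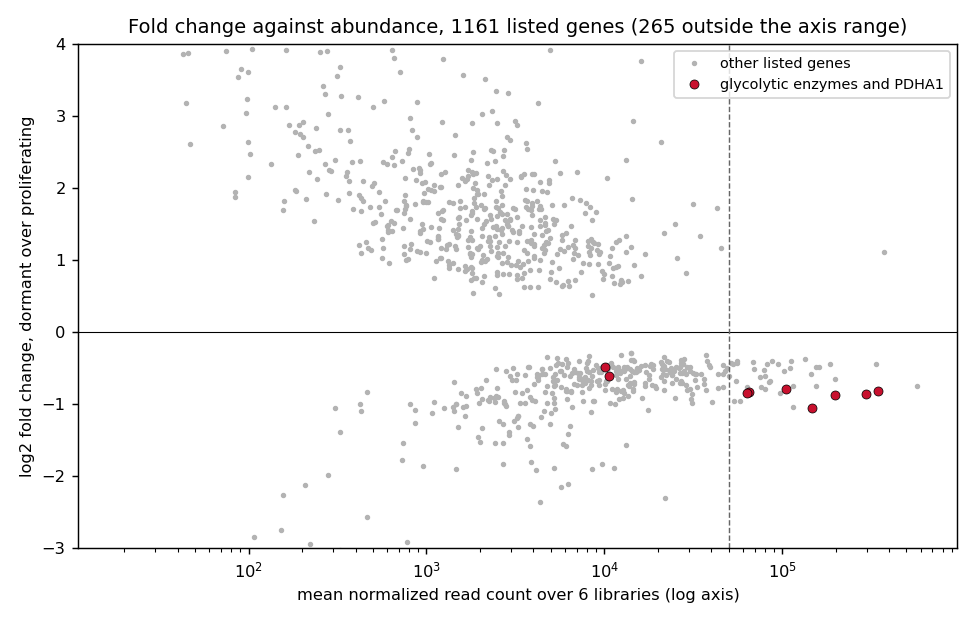
Log2 fold change of dormant over proliferating cells (edgeR) against the mean normalized read count over the 6 libraries (log axis) for the listed genes, with the 9 rows of the 8 genes in red, the other listed genes in grey and a dashed line at 50000. The axis runs from -3 to 4 and leaves out 265 of the 1161 listed genes, and right of the line 43 of 44 genes lie below 0, with *LDHA* the lowest.

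Listed markers of other cell types, ribosomal protein genes and a mitochondrial gene also differed between the populations. The carcinoma keratins *KRT8* and *KRT18*, 2 of 8 markers of the line in the list used, were lower in dormant cells with log2 fold changes of -0.75 and -0.51, and their summed normalized read count was 211434 to 243206 in proliferating and 118901 to 155798 in dormant libraries. Of 10 fibroblast and mural cell markers, 6 were listed and all were higher in dormant cells (*BGN*, *COL1A1*, *COL3A1*, *DCN*, *LUM*, *PDGFRB*), with a sum of 4573 to 7769 in proliferating and 48566 to 78931 in dormant libraries. *DCN* was at 0 in proliferating replicate 1. Of 10 astrocyte markers *SLC1A3* and *SPARCL1* were listed and higher, with a sum of 577 to 1339 against 3518 to 6961. Of 14 microglia and macrophage markers, *CD4* was higher in dormant cells (mean 17.1 in proliferating and 1406 in dormant cells) and *CD74* lower (76522 and 39379). Their sum, nearly all of it *CD74*, was 49814 to 106384 in proliferating and 34728 to 45187 in dormant libraries. None of the 10 neuron, 5 endothelium and 5 oligodendrocyte markers in the lists used was in the table. Other genes of these cell types were not looked for, so *ENO2* was not set against neuronal genes. The 8 listed ribosomal protein genes and *MT-ATP6*, the only listed gene with a mitochondrial MT- symbol, were all lower. Genes of these kinds outside the table were not analysed, and RNA quality itself was not measured. The median of the ribosomal genes was -0.46 on the log2 scale, and *MT-ATP6* had -0.38. With equal sums, *KRT8*, *KRT18* and *MT-ATP6* did not pass by edgeR (adjusted p 0.0631, 0.0564 and 0.388). The part of any of these in the values of the 8 genes was not tested.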

How the data were processed

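Reads of 6 Smart-seq2 libraries were trimmed with Cutadapt, checked with FastQC 0.11.8 and aligned with STAR 2.7 (versions from the submitters' processing notes) by the authors to joined human GRCh38.p12 (GENCODE release 31) and mouse GRCm38.p6 assemblies. Reads were counted with Rsubread, multi-mapping reads included, and mouse reads were discarded. The deposited estimated counts are not normalized and are partly fractional. The deposited normalized read counts are signal values, whole-number counts that the authors scaled with DESeq2 size factors, and dividing the rounded counts gave them back to within 5.04e-05. Columns of the authors' own fold changes, test statistics and p-values were not used.

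Estimated counts were rounded and all 1161 rows were fitted in edgeR 4.0.16 (R 4.3.3) with population as the only term (quasi-likelihood test, two-sided, size factors as deposited, no filter on low counts). Benjamini-Hochberg adjustment ran over the 1161 rows. The dispersion (common value 0.182) comes from genes selected for a difference. Ratios were compared by exact permutation tests. DESeq2 1.42.0, limma 3.58.1 with pseudocounts of 1 and 10, other scalings, a filter, a replicate block, an adjustment over protein-coding genes and leaving out each library were alternatives.

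The numbers pair the samples only because the labels give both populations of one number the same group of mice. The values do not show the pairing, since the deviations of same-numbered libraries from their population means correlated by 0.057, -0.018 and 0.001 over the listed genes, and by 0.16, -0.17 and 0.47 over the 8 genes. GENCODE release 44 (GRCh38) gave positions and transcript lengths, with 1156 identifiers matched, and RefSeq the promoters. The genes named are the 8 genes, every listed gene of the fixed lists, and the 5 listed genes closest in profile in each of the 2 ways described. Features that share reads with the 8 genes and the extremes among abundant genes were named after their values were seen. The genes and lists were chosen with earlier results of these data known. Python 3.11.15, numpy 2.4.6, pandas 2.3.3, scipy 1.17.1 and matplotlib 3.10.9 were used.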

Additional observations from a re-analysis of the deposited data

How the results depend on the processing

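All 9 rows of the 8 genes stayed lower in dormant cells under each of the 15 alternatives run per row, with log2 fold changes from -1.65 to -0.20, and 124 of the 135 values kept their side of the threshold. The adjustment over protein-coding genes left 0 of the 9 rows, 0 of the 13 other pathway genes and 3 of the 1161 listed genes past 0.05 by edgeR, because each p-value is then set against more genes. At an unadjusted p under 0.05 these were 9, 13 and 1157, and over the same number of genes limma called 0, 0 and 173 and DESeq2 called 9, 13 and 1161. With equal sums of listed counts 7 of the 9 rows passed, *ENO2* and *PDHA1* being lost, and so did 948 of the 1161 listed genes in either direction. The median log2 fold change of the 9 rows was then -0.54, and with the median ratio over the listed genes it was -1.42. Without single libraries that median ran from -0.97 to -0.69, without proliferating replicates 2 and 3 respectively. The log2 difference of *ENO1* to *GAPDH* ran from -0.10 to 0.041 without single libraries, being 0.041 without proliferating replicate 3 and 0.033 without dormant replicate 2. That of *ENO1* to *ENO2* ran from -0.42 to -0.073 and that of *LDHA* to *GAPDH* from -0.32 to -0.067, in both cases nearest to 0 without proliferating replicate 3. That of *LDHA* to *PDHA1* ran from -0.63 to -0.39. With the replicate block 9 of the 9 rows and 13 of the 13 pathway genes passed, and 1097 of the listed genes, and the block changed no call of these genes. As pairs, the ratio of *LDHA* to *PDHA1* had an exact sign-flip p of 0.25, the smallest that 3 pairs allow. The total depth of the libraries is unknown. Estimated counts of the 8 genes were at least 5873 per library, but these are amplified reads without molecular identifiers, so the number of molecules behind them is unknown.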
